A study of Homo sapiens with 12 samples.

Results

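The 9 genes SMAD7, SMAD6, SKIL, PMEPA1, TGFBI, ID1, ID2, ID3 and BAMBI are known to respond to transforming growth factor beta (TGF-beta) or bone morphogenetic protein (BMP). They were found by symbol among 63677 Ensembl identifiers, and all 9 were present. The cells were HCT116, an established human colorectal cancer line, and their polyadenylated RNA was sequenced. There were 4 groups of 3 libraries, which the labels give as the genotypes CR3, reverse, scramble and mCherry. CR3 is described by the submitters as a peptide that perturbs condensates, membraneless assemblies of protein and RNA. The series describes reverse and scramble only as variants of it, and mCherry is a fluorescent protein used as the control. All cells, controls included, carried an inducible construct in clones of the line, were grown with 10% fetal calf serum and were given doxycycline. The labels put its concentration at 1 ug/ul and its start at 48 before RNA was taken, without saying whether hours are meant. Whether a group is 1 clone or several, and whether its libraries came from separate cultures, is not given, so p-values measure the spread between libraries, which may be technical. No group went without the drug, so the drug was the same in every comparison and its own effect was not measured.

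TGF-beta and BMP are secreted ligands that bring together type I and type II receptor kinases at the cell surface. The type I kinase phosphorylates receptor-regulated SMAD proteins, SMAD2 and SMAD3 downstream of TGF-beta and SMAD1, SMAD5 and SMAD9 downstream of BMP, and these enter the nucleus with SMAD4. Several of the genes they switch on hold the pathway in check. In the gut, BMP signaling opposes stem cell renewal, and TGF-beta restrains the growth of normal epithelium. Many colorectal cancers with microsatellite instability, the class to which HCT116 belongs, carry frameshifts in the receptor gene TGFBR2.

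SMAD proteins bind short DNA words, and the promoters of the 9 genes were searched for 3 of them on both strands. CAGAC is the core bound by SMAD3 and SMAD4, and GTCTAGAC is a palindrome built on the AGAC within it. GGCGCC is a GC-rich word bound by SMADs downstream of BMP. A CAGAC match on the opposite strand reads GTCTG. None of the matches marked below overlaps another. The RefSeq windows (GRCh38.p14) run from 250 bases before to 50 bases after an annotated start, and 14 windows cover the 9 genes. The first listed windows of 4 genes are printed 5′ to 3′ with the matches in capitals. They are SMAD7 and PMEPA1, whose levels differ most between groups, SMAD6, which holds the palindrome, and BAMBI, which holds the most matches in a single window.
SMAD7 window, chr18:48950916-48951215, minus strand: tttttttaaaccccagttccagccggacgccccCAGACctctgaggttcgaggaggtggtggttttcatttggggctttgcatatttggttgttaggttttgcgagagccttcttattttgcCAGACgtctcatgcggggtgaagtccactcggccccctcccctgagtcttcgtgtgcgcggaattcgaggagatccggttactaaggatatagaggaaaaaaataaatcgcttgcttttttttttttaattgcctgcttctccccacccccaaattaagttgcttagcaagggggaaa
PMEPA1 window, chr20:57711423-57711722, minus strand: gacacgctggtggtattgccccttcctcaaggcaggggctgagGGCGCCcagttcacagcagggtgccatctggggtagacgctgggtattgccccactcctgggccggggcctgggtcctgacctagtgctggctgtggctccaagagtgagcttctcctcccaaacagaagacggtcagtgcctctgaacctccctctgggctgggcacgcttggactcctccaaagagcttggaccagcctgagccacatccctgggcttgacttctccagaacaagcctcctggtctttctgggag
SMAD6 window, chr15:66701986-66702285, plus strand: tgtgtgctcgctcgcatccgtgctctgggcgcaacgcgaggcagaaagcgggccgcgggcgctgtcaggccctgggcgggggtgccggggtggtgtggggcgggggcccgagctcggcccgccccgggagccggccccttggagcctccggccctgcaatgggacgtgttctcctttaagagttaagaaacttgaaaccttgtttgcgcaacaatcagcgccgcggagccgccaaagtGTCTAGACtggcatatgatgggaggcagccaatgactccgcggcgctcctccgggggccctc
BAMBI window, chr10:28677271-28677570, plus strand: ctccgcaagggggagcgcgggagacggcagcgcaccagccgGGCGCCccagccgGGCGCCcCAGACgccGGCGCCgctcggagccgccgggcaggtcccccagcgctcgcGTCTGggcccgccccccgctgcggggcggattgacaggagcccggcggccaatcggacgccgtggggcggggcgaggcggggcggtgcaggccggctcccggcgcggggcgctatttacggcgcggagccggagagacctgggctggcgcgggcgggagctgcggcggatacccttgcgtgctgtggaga
In SMAD7 the capitals are CAGAC at positions -217 and -128 from the start, and in PMEPA1 GGCGCC at -207. Windows of SMAD7 and PMEPA1 that are not printed held further matches, with positions counted from their own starts. These were GTCTG at -193 in SMAD7, and CAGAC at -115, 3 and -71 and GTCTG at 9 in PMEPA1. The SMAD6 window held GTCTAGAC at -12, a word found in 0.202% of 35116 windows of this length. BAMBI held GGCGCC at -209, -196 and -181, CAGAC at -189 and GTCTG at -140. Of the 14 windows of the 9 genes, 4 had GGCGCC and 8 had CAGAC, where 19.2% and 45.3% of all windows did. SKIL, not printed, held GGCGCC at -190 and GTCTG at -107. ID1 and ID2 had none of the 3 words. These are matches of letters, and binding was not measured.

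The unit used throughout is the normalized read, a gene's reads over the size factor of its library. The decimal marks of the deposited values had been lost, and the number of reads in each cell was restored as a whole multiple of the worth of 1 read, up to a power of 10 that was chosen by likelihood from all libraries of a gene. Library totals ranged from 17429315 to 23566300 reads. Genes with at least 10 reads in at least 3 libraries and no cell of doubtful power were tested with limma, 15509 in all, and a gene is called at a Benjamini-Hochberg adjusted p under 0.05. Of the 9 genes, 7 were tested. SMAD6 was left out for a doubtful power and TGFBI for too few reads. The CR3 libraries stood far from the other 9 over all genes, with 22.0% of tested genes called in the same direction against all 3 other groups.

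With the decimal marks read as described, the 2 inhibitors SMAD7 and PMEPA1 rose several-fold in CR3 cells and the corepressor gene SKIL rose slightly against all 3 other groups, while ID1 was slightly lower. The direction of SMAD7 and the size of the PMEPA1 change depend on that reading: without the group labels SMAD7 was lower in CR3, and PMEPA1 was called against mCherry alone. The reading without labels fits a single mean to all libraries of a gene, so it favours powers that bring the groups close together. With the labels used, SMAD7, PMEPA1, SKIL and ID1 are 4 of the 7 tested genes (57.1%), 3 higher and 1 lower. Of all tested genes 10.9% were higher and 11.1% lower. The choice of the 9 genes was made with results of these data known, so no test was made on that count. For SMAD7, SKIL and PMEPA1 the 3 CR3 libraries lay above all 9 others, as they did for 13.7% of tested genes. None of the 7 lay below all 9 others in CR3, against 13.4% of tested genes. PMEPA1 passed the read filter through its CR3 libraries alone, so the filter itself selected it for being high in CR3.

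**Figure D1:**
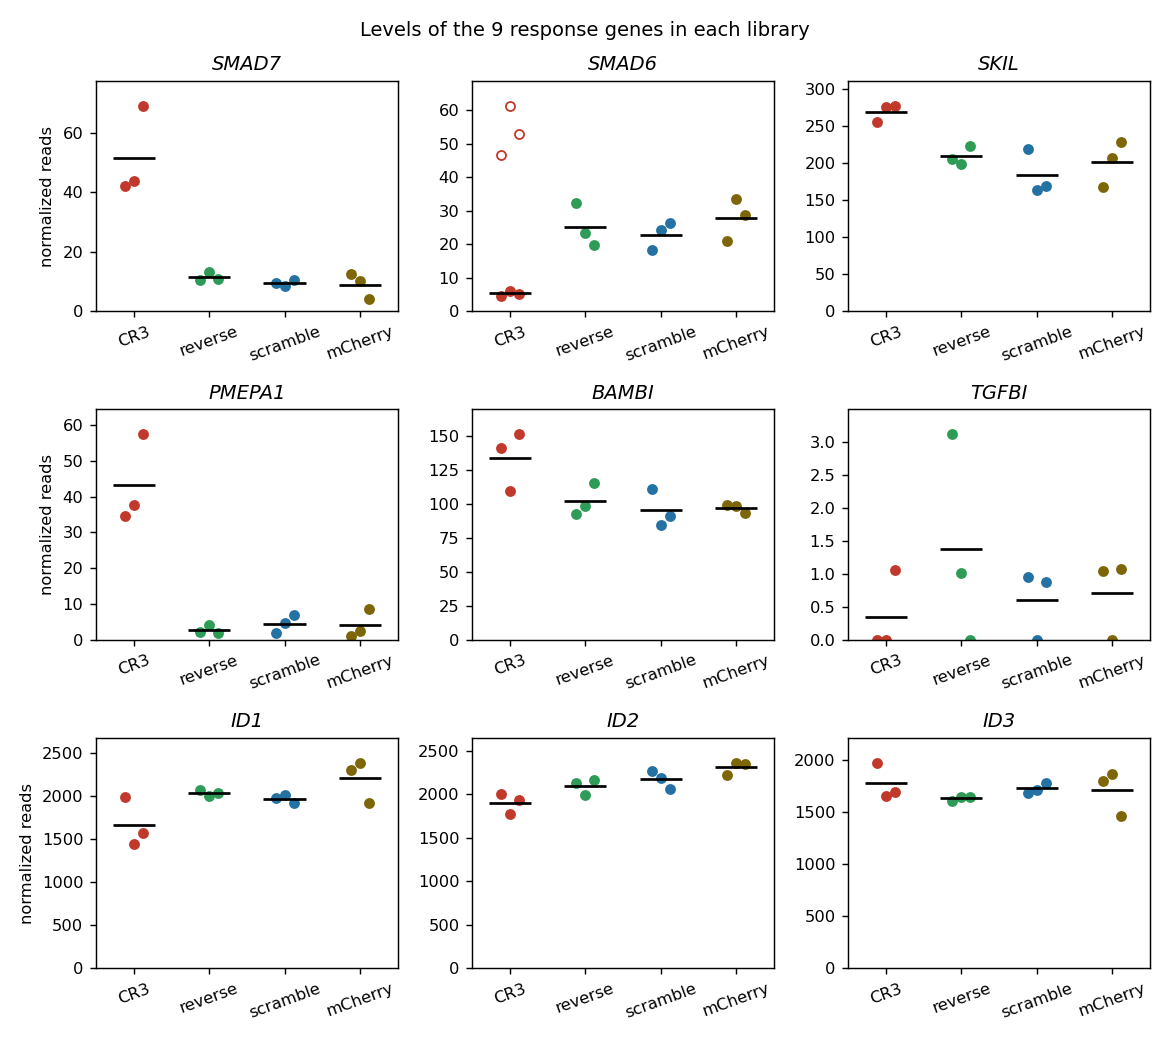
Normalized reads of the 9 genes in each library (points) with the mean of 3 libraries (bar), by group, on linear axes starting at 0. Open circles for SMAD6 are the second possible reading of its CR3 values. SMAD7 and PMEPA1 stand at 34.6 or more in each CR3 library and at 13.3 or less in each other library.

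SMAD7 (ENSG00000101665, GRCh38 chromosome 18, 48919853 to 48952052) encodes an inhibitory SMAD that blocks type I receptors and recruits ubiquitin ligases to them. It had 42.0, 43.9 and 69.1 normalized reads in CR3, against 10.4, 13.3 and 10.8 in reverse, 9.59, 8.41 and 10.5 in scramble, and 12.5, 10.1 and 4.27 in mCherry. The lowest CR3 library was above the highest of the other 9, and the reverse, scramble and mCherry libraries overlapped one another. The log2 fold changes were 2.05 ± 0.32 against reverse, 2.29 ± 0.32 against scramble and 2.47 ± 0.32 against mCherry (SE, n = 3 libraries a group), with limma adjusted p of 0.000101, 2.65e-05 and 1.54e-05. Against mCherry, 526 of 15509 tested genes had a larger log2 fold change. The call rests on how the decimal marks were read. A reading that ignores the group labels, added after the data had been seen, makes all 9 libraries without CR3 10 times larger, so that each of these counts would be a multiple of 10, and gives log2 fold changes of -1.17, -0.90 and -0.69 against reverse, scramble and mCherry. SMAD7 would then be called lower in CR3 than in reverse (limma adjusted p 0.00960) and scramble (0.0337), and not called against mCherry (0.120).

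PMEPA1 (ENSG00000124225, chromosome 20, 57648392 to 57711536) is a TGF-beta target whose membrane protein binds SMAD2 and SMAD3 and dampens signaling. It had 34.6, 37.7 and 57.4 normalized reads in CR3, against 2.08, 4.09 and 1.80 in reverse, 1.92, 4.67 and 7.01 in scramble, and 1.04, 2.52 and 8.53 in mCherry. Each CR3 library was above all 9 others. The summed reads behind these values were 134 in CR3, 8 in reverse, 15 in scramble and 12 in mCherry. Its log2 fold changes were 3.61 ± 0.49, 3.08 ± 0.49 and 3.40 ± 0.49 against reverse, scramble and mCherry, with limma adjusted p of 2.17e-05, 9.69e-05 and 4.82e-05. Read without the group labels, the values were 0.74 against reverse (adjusted p 0.333) and 1.13 against scramble (adjusted p 0.123), neither called, and 1.60 against mCherry (adjusted p 0.0414), still called. An antisense gene, NKILA, overlaps its exons and was not analysed here, and without a stated strand setting of the counting the reads of both cannot be told apart.

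Which powers are doubtful depends on the ratio of likelihoods that counts as doubtful and on the allowance for differences between groups. At the ratio of 20 and the allowance used here every cell of SMAD7 and PMEPA1 was settled. With either other allowance tried, PMEPA1 was doubtful at this ratio. With the allowance used here, a single library of each became doubtful at ratios of 100 and 1000. These were reverse replicate 1 for SMAD7 (10 or 100 reads) and mCherry replicate 1 for PMEPA1 (1 or 10 reads). Both genes would then leave the test, while the other 11 libraries of each stayed settled.

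SMAD6 (ENSG00000137834, chromosome 15, 66702228 to 66782848), the inhibitory SMAD tied mainly to BMP signaling, could be read both ways in CR3. Its reads were 5, 7 and 5 in CR3 in the likelier reading and 50, 70 and 50 in the other, against 31, 23 and 22 in reverse, 19, 26 and 30 in scramble, and 20, 40 and 27 in mCherry. CR3 is thus below all 9 other libraries in one reading and above them in the other. Its log2 fold changes would be -2.02, -1.90 and -2.16 against reverse, scramble and mCherry with counts of 5 to 7, and 1.08, 1.20 and 0.94 with counts of 50 to 70. Either would be called in all 3 comparisons: the smaller counts at a limma adjusted p of 1.95e-05, 3.19e-05 and 1.08e-05, the larger at 0.00434, 0.00177 and 0.0123. No direction is given for SMAD6. With a wider allowance for differences between groups (scale 0.5, 2 degrees of freedom) the smaller counts were no longer doubtful. With another (scale 0.25, 3 degrees of freedom) they stayed doubtful.

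SKIL (ENSG00000136603, chromosome 3, 170357678 to 170396835) encodes SnoN, a corepressor that binds SMAD proteins and is itself induced by TGF-beta. It had 255, 275 and 277 normalized reads in CR3, against 205, 198 and 223 in reverse, 219, 164 and 169 in scramble, and 168, 206 and 228 in mCherry. The CR3 libraries were above all others, by a margin that was narrow against mCherry replicate 3. Its log2 fold changes were 0.36 ± 0.13, 0.56 ± 0.13 and 0.43 ± 0.13 against reverse, scramble and mCherry, with limma adjusted p of 0.0396, 0.00261 and 0.0195. The call against reverse was lost without any 1 of the 3 CR3 libraries or of reverse replicates 1 and 2 (adjusted p 0.0575 to 0.119). That against mCherry was lost without mCherry replicate 1, CR3 replicate 2 or CR3 replicate 3 (0.0570 to 0.105). The call against scramble was kept in each of these.

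BAMBI (ENSG00000095739, chromosome 10, 28677342 to 28682939) encodes a decoy receptor that lacks the kinase domain. It had 141, 109.6 and 151 normalized reads in CR3, against 92.7, 98.2 and 115 in reverse, 111, 84.1 and 91.2 in scramble, and 99.2, 98.4 and 92.8 in mCherry. CR3 replicate 2 lay below the highest reverse and scramble libraries. The log2 fold change was 0.38 ± 0.16 against reverse (limma adjusted p 0.0684, not called), 0.48 ± 0.16 against scramble (0.0221) and 0.45 ± 0.16 against mCherry (0.0383). Without CR3 replicate 2 the value against reverse was called (0.52, adjusted p 0.0231). The call against scramble was lost without CR3 replicate 1 or 3 or scramble replicate 2 or 3 (0.0667 to 0.106). Against mCherry it was lost without CR3 replicate 1 or 3 or any 1 of the mCherry libraries (0.0687 to 0.165).

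The ID genes encode small helix-loop-helix proteins that lack a DNA-binding region and hold E proteins off DNA. They are classical BMP targets. Per kilobase of exon they were by far the most abundant of the 9 genes, with mean levels in CR3 of 1354 for ID1, 863 for ID2 and 986 normalized reads per kilobase for ID3, against 57.9 for BAMBI and 34.6 for SKIL. The CR3 means were 10.3 for SMAD7, 7.69 for PMEPA1 and 0.0454 for TGFBI on the same scale.

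ID1 (ENSG00000125968, chromosome 20, 31605283 to 31606515) had 1994, 1445 and 1569 normalized reads in CR3, against 2074, 2005 and 2034 in reverse, 1979, 2009 and 1919.8 in scramble, and 2301, 2388 and 1924 in mCherry. CR3 replicates 2 and 3 were below all 9 other libraries, while CR3 replicate 1 lay among them. The log2 fold changes were -0.30 ± 0.09, -0.25 ± 0.09 and -0.41 ± 0.09 against reverse, scramble and mCherry, with limma adjusted p of 0.0189, 0.0417 and 0.00305. Scaled by library size alone they were -0.21 (adjusted p 0.0802) and -0.16 (0.178) against reverse and scramble. The call against scramble was lost in 8 of the 12 fits that left out 1 library, those without CR3 replicate 2 or 3 or any scramble or reverse library (0.0517 to 0.216). That against reverse was lost in 3, without CR3 replicate 2, CR3 replicate 3 or reverse replicate 1 (0.0587 to 0.109).

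ID2 (ENSG00000115738, chromosome 2, 8678845 to 8684453) had 2002, 1775 and 1930.2 normalized reads in CR3, against 2127, 1998 and 2170.4 in reverse, 2273, 2194 and 2062 in scramble, and 2226, 2365 and 2344 in mCherry. The CR3 libraries lay below those of scramble and mCherry and overlapped reverse in 1 library. Its log2 fold changes were -0.14 ± 0.06 against reverse (limma adjusted p 0.0568, not called), -0.19 ± 0.06 against scramble (0.0102) and -0.28 ± 0.06 against mCherry (0.000903). The call against scramble was lost without CR3 replicate 2 or scramble replicate 1 (0.0540 and 0.0587) and with library size alone (-0.10, adjusted p 0.151). Against reverse, it was called without mCherry replicate 3, CR3 replicate 1 or reverse replicate 2 (0.0445, 0.0323 and 0.0412). The antisense gene ID2-AS1 overlaps ID2 and had 9.79 normalized reads on average in CR3, 10.5 in reverse, 15.3 in scramble and 11.0 in mCherry.

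ID3 (ENSG00000117318, chromosome 1, 23557918 to 23559794) had 1972, 1654 and 1691 normalized reads in CR3, against 1609, 1641 and 1642 in reverse, 1684, 1709.8 and 1780.4 in scramble, and 1794, 1861 and 1462 in mCherry. The CR3 libraries overlapped those of scramble and mCherry and lay just above those of reverse. It was not called, with log2 fold changes of 0.12 (95% interval -0.05 to 0.28), 0.04 (-0.13 to 0.20) and 0.06 (-0.11 to 0.22) against reverse, scramble and mCherry. The 3 ID genes thus did not move alike in CR3, but whether their changes differ from one another was not tested.

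TGFBI (ENSG00000120708, chromosome 5, 136028895 to 136063818), an extracellular matrix protein named for its induction by TGF-beta, was nearly silent. It had 0, 0 and 1 reads in CR3, 3, 1 and 0 in reverse, 1, 0 and 1 in scramble, and 1, 0 and 1 in mCherry. At this depth no difference was detectable, and no library exceeded 3 reads. Its promoter window held GGCGCC at -111.

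**Figure D2:**
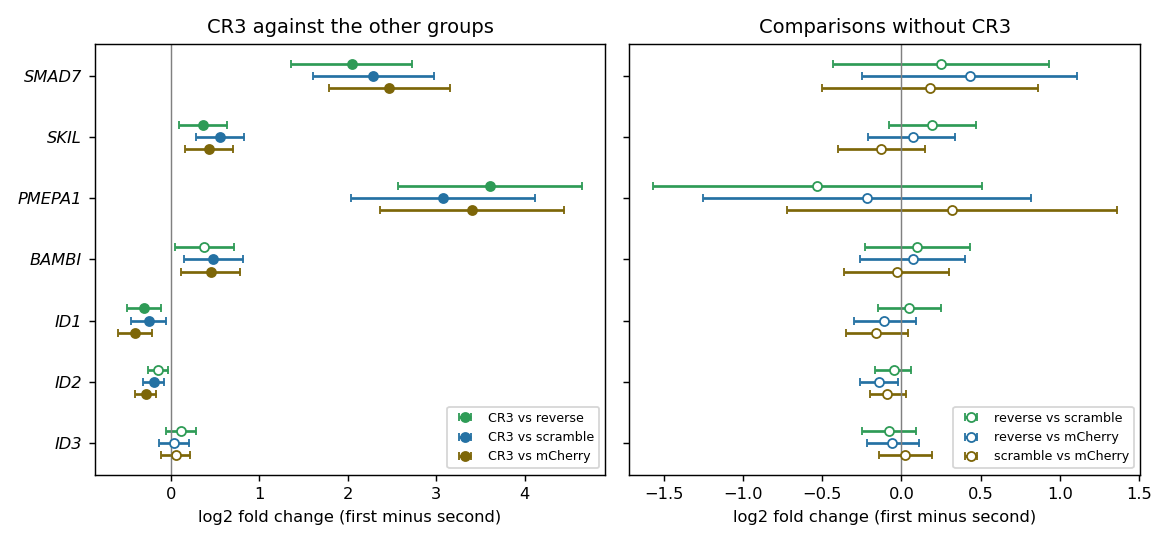
Log2 fold change (first group minus second) with its 95% interval for the 7 tested genes, for CR3 against each other group (left) and for the comparisons without CR3 (right). Filled points have a limma adjusted p under 0.05. SMAD7 and PMEPA1 lie at 2.05 or more on the left, and no point on the right is filled.

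Counted by comparison, CR3 against reverse had 3 of the 7 genes higher and 1 lower, where 33.3% of tested genes were called (16.7% higher, 16.6% lower). Against scramble 4 were higher and 2 lower (37.4% of all genes, 18.9% higher and 18.5% lower), and against mCherry 4 were higher and 2 lower (28.3%, 13.9% higher and 14.4% lower). These 3 comparisons share the CR3 libraries. No gene of the 7 was called between reverse and scramble, reverse and mCherry or scramble and mCherry, where 0.426% (0.264% higher, 0.161% lower), 0.600% (0.245% and 0.355%) and 1.37% (0.677% and 0.696%) of tested genes were called. The smallest limma adjusted p there were 0.777, 0.446 and 0.462, and at an unadjusted p under 0.05 ID2 alone would pass, in reverse against mCherry (log2 fold change -0.14, p 0.0216). The widest 95% intervals were those of PMEPA1, -1.57 to 0.51 for reverse against scramble, so changes of that size were not detectable for it.

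Other genes of the pathways were taken from 9 lists of 118 genes, of which 82 were tested, 1 (ID4) had a doubtful power and 35 had too few reads. Called in one direction against every other group were 20 genes of these lists, 14 with more reads under CR3 and 6 with fewer. They make up 24.4% of the pathway genes tested, where 22.0% of all tested genes were called, so the lists as a whole stood near the background. The higher share was 17.1% against 10.9%, and the lower share 7.32% against 11.1%. These background shares also belong beside the count of each list below. The median log2 fold change of the 82 genes was 0.09 against reverse, 0.11 against scramble and 0.05 against mCherry, where that of all tested genes was 0.01, 0.01 and 0.0021. Of the 82, 4 passed the read filter through CR3 alone (BMPR1B, COL4A1, MMP2 and TCF4). Leaving out 1 library at a time, 12 of the 20 called genes kept all their calls.

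Among ligands, 1 of 5 tested TGF-beta and activin genes was called against all 3 groups. This was GDF11, a patterning factor that signals through SMAD2 and SMAD3, with 445 ± 2.69 normalized reads in CR3, 356 ± 16.6 in reverse, 332 ± 0.282 in scramble and 364 ± 8.43 in mCherry (SD, n = 3). INHBB, an activin subunit, averaged 23.9 in CR3 and 14.3 to 17.8 elsewhere, and TGFB2 and TGFB3 differed by 0.29 and 0.01 on the log2 scale against mCherry, none of them called. Of 7 tested BMP-type ligands, 1 rose and 1 fell. BMP7 rose to 405 ± 25.0 in CR3, against 250.1 ± 22.8 in reverse, 259 ± 26.7 in scramble and 243 ± 5.34 in mCherry, with a log2 fold change of 0.73 against mCherry (limma adjusted p 2.50e-05). BMP4 fell to 550.4 ± 8.78, against 772 ± 18.4, 805 ± 51.7 and 763 ± 37.2 in reverse, scramble and mCherry (-0.47 against mCherry, adjusted p 2.13e-05). Both signal through SMAD1, SMAD5 and SMAD9. BMP8B was higher against reverse (0.31, adjusted p 0.00411) and scramble (0.26, 0.00973) and not called against mCherry (0.17, 0.0956), and BMP8A, its near copy, whose reads the counting may have split, was not called (0.19 against mCherry).

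Among 14 tested receptors and co-receptors, 4 rose and 1 fell with CR3 in every comparison, where 10.9% of all tested genes were higher and 11.1% lower. TGFBR2, the type II TGF-beta receptor, stood at 597 ± 20.6 in CR3, 801 ± 40.4 in reverse, 777 ± 12.2 in scramble and 831 ± 15.8 in mCherry, with log2 fold changes of -0.42, -0.38 and -0.48. The type II BMP receptor BMPR2 reached 1637 ± 99.9 in CR3, against 1413 ± 123, 1181 ± 63.3 and 1300.2 ± 144, and its call against reverse was lost in 6 of the fits without 1 library (adjusted p 0.0543 to 0.182). TGFBR3, the co-receptor betaglycan, had 603 in CR3 and 490 to 516 on average elsewhere, and 2 fits without 1 library lost its call against reverse. ACVRL1, a type I receptor best known from endothelium, had 127 in CR3 and 78.2 to 86.2 elsewhere, and 5 fits without 1 library lost one of its calls. BMPR1B, a type I BMP receptor, had 11.6 in CR3 and 0.943 to 2.02 elsewhere. It passed the read filter through CR3 alone, so the filter itself selected it for being high there. Its call against reverse was lost without reverse replicate 3 (limma adjusted p 0.0569).

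The SMAD genes themselves split. SMAD3, which carries the TGF-beta signal, fell to 1243 ± 89.4 normalized reads in CR3, against 2057 ± 62.3 in reverse, 1947 ± 82.1 in scramble and 2120.2 ± 110.1 in mCherry. Its log2 fold changes were -0.73, -0.65 and -0.77, with limma adjusted p of 4.96e-08, 1.63e-07 and 2.78e-08. SMAD9, a BMP-regulated SMAD that is also a BMP target, rose to 176 ± 13.4 in CR3, against 109 ± 1.60, 97.8 ± 3.38 and 108 ± 4.46 (0.68, 0.84 and 0.70). SMAD4, the common partner, and SMAD1 had log2 fold changes of -0.13 and -0.19 against mCherry and were not called (adjusted p 0.0831 and 0.136). SMAD3, SMAD9, BMP4, BMP7, GDF11 and TGFBR2 kept their calls in each fit that left out 1 library.

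Among 12 tested intracellular corepressors and ubiquitin ligases, TGIF2 was higher and TGIF1 and SMURF2 lower in CR3 than in all 3 groups. TGIF1, a homeodomain corepressor of SMAD2 and SMAD3, fell to 1354 in CR3, against 1717 in reverse, 1675 in scramble and 1850.4 in mCherry. Its relative TGIF2 stood at 654 in CR3, 537, 526 and 526 in those groups. SMURF2, a ligase for SMADs and receptors, differed by -0.13 against mCherry, and 10 of the 12 fits without 1 library lost one of its calls. SKI, the relative of SKIL, was higher against mCherry (0.18, limma adjusted p 0.00726) and scramble (0.16, 0.0118) and not called against reverse (0.08, 0.231). USP9X, a deubiquitinase of SMAD4, was higher against mCherry (0.24, 0.00825) and scramble (0.19, 0.0247) and stood at 0.02 against reverse. Of 10 tested extracellular antagonists and latency proteins, none was called in the same direction against all 3 groups. Against mCherry 1 was higher, where 13.9% of all tested genes were. Against scramble 2 were higher and 1 lower (18.9% and 18.5% of all tested genes), and against reverse 3 were higher (16.7%). Their median log2 fold change was 0.01 against mCherry. The BMP antagonist CHRD was higher against reverse (0.50, adjusted p 0.0112) and scramble (0.47, 0.0136) but not called against mCherry (0.23, 0.253). LTBP3, which holds latent TGF-beta, did likewise (0.25, 0.30 and 0.16), and LTBP4 was not called (-0.17 against mCherry). CHRDL1, which binds BMPs, went both ways: it had 23.9 normalized reads in CR3, 58.6 in scramble, and no read in reverse and mCherry.

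**Figure D3:**
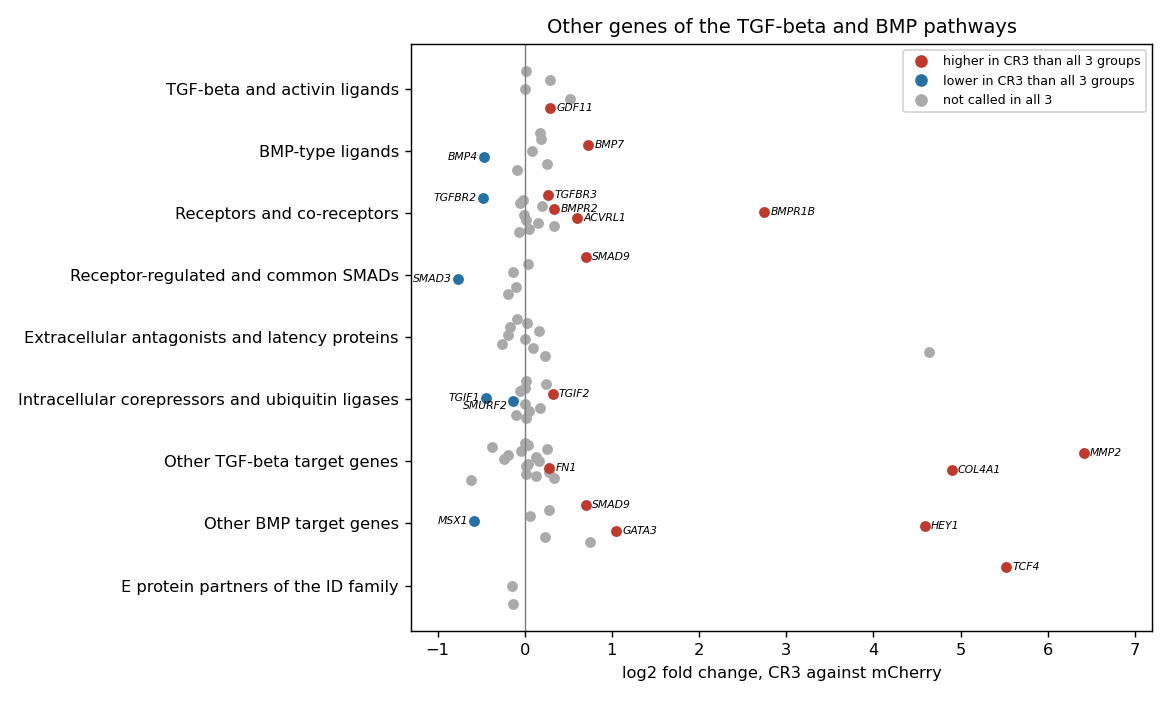
Log2 fold change of CR3 against mCherry for each tested gene of the 9 pathway lists (points), with named genes called in the same direction against all 3 groups. Most points lie near 0, and the values above 4 (MMP2, TCF4, COL4A1, CHRDL1 and HEY1) belong to genes with a mean of 11.1 normalized reads or less in mCherry, where the fitted size depends on the pseudocount of 1.

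Other target genes did not follow one direction. Of 19 tested TGF-beta targets, 3 were higher in all 3 comparisons, where 10.9% of all tested genes were. Against mCherry 3 were higher and 2 lower (13.9% and 14.4% of all tested genes), with a median log2 fold change of 0.04. MMP2, a gelatinase, had 104 ± 16.0 normalized reads in CR3 and 0.280 to 0.584 on average in the other groups. The collagen IV chain COL4A1 had 136 ± 8.17 in CR3 and 3.65 to 4.97 elsewhere. Both passed the read filter through CR3 alone, so the filter itself selected them for being high there. FN1, fibronectin, reached 563 ± 38.2 in CR3, against 439 ± 58.4 in reverse, 402 ± 9.82 in scramble and 466 ± 54.8 in mCherry, and 9 fits without 1 library lost one of its calls. KLF10, an early TGF-beta response gene, was lower against mCherry (-0.24, limma adjusted p 0.00510) and reverse (-0.23, 0.00653) but not called against scramble (-0.14, 0.0784). BHLHE40, a helix-loop-helix repressor, was lower against mCherry (-0.62, 0.00527) and not called against reverse (-0.40, 0.0540) or scramble (-0.10, 0.631).

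Of 8 tested BMP targets, 3 were higher (SMAD9, above, HEY1 and GATA3) and 1 lower in all 3 comparisons (10.9% and 11.1% of all tested genes). Their median log2 fold change was 0.49 against mCherry. HEY1, a repressor of the Hairy family also driven by Notch, had 268 ± 14.4 normalized reads in CR3, against 16.6 ± 2.95 in reverse, 11.7 ± 1.21 in scramble and 11.1 ± 5.18 in mCherry. Its call against reverse, and those of COL4A1 in all 3 comparisons, were lost when powers were chosen without the group labels. GATA3, a zinc finger factor, had 81.5 in CR3 and 39.7 to 50.2 on average elsewhere, and 6 fits without 1 library lost one of its calls. The homeobox gene MSX1 fell to 1516 ± 152 in CR3, against 1745 ± 45.2, 1858 ± 25.9 and 2253 ± 101 in reverse, scramble and mCherry, and its call against reverse was lost without CR3 replicate 2, CR3 replicate 3 or reverse replicate 1 (adjusted p 0.0544 to 0.0764). ID4, the other ID gene, averaged 156 in CR3 and 6.65 to 9.26 elsewhere in the likelier reading, but was left untested for its doubtful power. The E proteins that ID proteins bind include TCF4, which had 66.3 in CR3, 2.08 in reverse, no read in scramble and 0.711 in mCherry. TCF4 passed the read filter through CR3 alone, so the filter itself selected it for being high there. The E proteins TCF3 and TCF12 were not called against all 3 groups.

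Markers of other cells moved with CR3 and are given beside these results. A list of 12 genes marks lines of embryonic kidney or neuron-like character. Of these 8 were tested. IRS4, UCHL1, CDH2 and NEFM had means of 549.8, 494, 129.8 and 148 in CR3 and of 4.70 or less in each other group. They passed the read filter through CR3 alone, which selects for genes that are high there. SOX2 also passed through CR3 alone and was called against reverse (1.80) and scramble (1.84), but not mCherry (1.21, limma adjusted p 0.0600). In all, 663 of 15509 tested genes passed in that way. NELL2 passed without CR3 and was higher than in reverse (1.61) and scramble (2.31), but not called against mCherry (0.73, limma adjusted p 0.0693). TUBB2B passed without CR3 and was higher in it (245, against 21.7 in reverse, 24.7 in scramble and 24.2 in mCherry), PAX2 was not called (239 in CR3, 241 in reverse, 215 in scramble and 246 in mCherry), and BEX1 was at or near 0 throughout. Their summed level was 1679 to 1952 in CR3 and 239 to 329.7 in the other libraries. Of 12 fibroblast and mesenchymal markers, 4 were tested. VIM and ZEB1 were higher in CR3 than in all 3 groups (2 of 4, where 10.9% of all tested genes were). COL1A1 and TWIST1 were higher than in scramble (0.42 and 0.86) and reverse (0.35 and 0.77) but not called against mCherry. The list summed to 1918 to 2153 in CR3 and 926 to 1209.6 elsewhere, with DCN, THY1 and FAP at or near 0. Of 12 colorectal epithelial markers, 7 were tested. EPCAM, KRT8, KRT18 and KRT19 fell with CR3 in every comparison (4 of 7, where 11.1% of all tested genes did). CDH1, CDX2 and KRT20 were not called in any comparison with CR3. Their log2 fold changes against mCherry were -0.12, 0.11 and -0.82. The list summed to 45702 to 52954 in CR3 and 55190.5 to 62831 elsewhere, with VIL1, CDX1, LGALS4 and CDH17 near 0 in all groups. The blood cell marker PTPRC, the common leukocyte antigen, was at 0 in all groups. The part of these shifts in the changes of SMAD7, PMEPA1 and the other genes was not tested, and fewer cells of a type and less RNA per cell cannot be told apart in bulk samples.

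For each of the 7 tested genes the 2 genes with the most similar pattern over the 12 libraries were sought among 10947 genes with at least 100 normalized reads on average, by the root mean square difference of centred log2 values. The nearest to SMAD7 were OBSL1, a cytoskeletal adaptor, and ACTA2, smooth muscle actin, at distances of 0.396 and 0.428. OBSL1 averaged 419 in CR3, 92.2 in reverse, 103 in scramble and 93.3 in mCherry. The nearest to PMEPA1 were VIM, vimentin, and QPRT, an enzyme of NAD synthesis, at 0.611 and 0.767. RRAS and MDK lay nearest to ID1 (0.043 and 0.059), and ALDH7A1 and AHRR to ID2 (0.037 and 0.045). SKIL was nearest to GLCCI1 and INTS6L, ID3 to INTS5 and ENTPD6, and BAMBI to EXD3 and FA2H, at distances between 0.027 and 0.095.

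**Figure D4:**
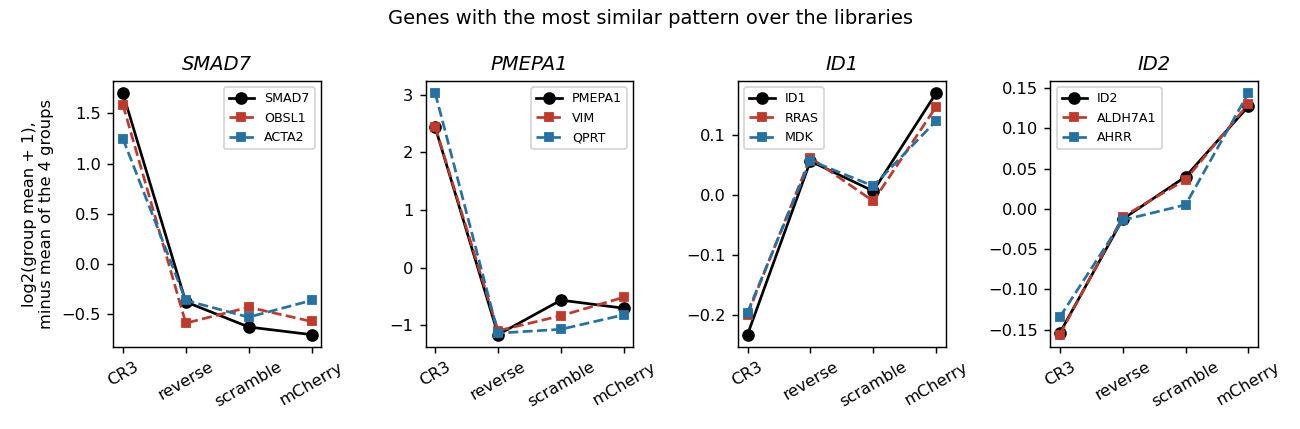
Group means as log2(mean + 1), each centred on the mean of the 4 groups, for 4 of the genes (black) and the 2 genes nearest to each (coloured). OBSL1 and VIM were high in CR3, as SMAD7 and PMEPA1 were, and RRAS and ALDH7A1 were low in CR3, as ID1 and ID2 were.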

How the data were processed

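PolyA RNA was measured in 12 HCT116 libraries, 3 for each construct, grouped by their titles. A strand-marking TruSeq kit was used, per the labels' protocols. Per the submitters' processing notes, which name GRCh38, the tools were STAR, Salmon, featureCounts, Trim Galore, DESeq2, edgeR, FastQC, MultiQC and GATK. Versions, annotation release and strand setting: not given in the sources used here. The deposited values have no standard unit: they are gene counts over size factors, as the authors made them, and most have lost their decimal mark.

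Each of 265152 non-zero cells was a whole multiple of the worth of 1 read (100.0% within 1e-07) at some power of 10. Powers were chosen by negative binomial likelihood within groups, with a heavy-tailed allowance between groups (scale 0.15, 2 degrees of freedom). In 1806 cells (0.681%) a second power stood within a ratio of 20 and the cell was taken as doubtful. Marks survive only on values under 1, which here are single reads. With these marks hidden, 97.64% of 18138 such cells were read correctly, and larger counts were not covered by this check. The allowance and the ratio were fixed after the data, including these 9 genes, had been seen. In all, 3 allowances and 3 ratios were tried, and the reads of the 9 genes were the same in each of the 4 other settings recomputed.

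Limma 3.58.1 in R 4.3.3, with a mean-variance trend, was fitted to log2(normalized reads + 1) of all 12 libraries. Fold changes on this scale understate those of low genes. Of 16179 genes with at least 10 reads in at least 3 libraries, 670 had a doubtful cell. Tests were two-sided, adjusted over all tested genes within each of 6 comparisons. The planned count tests were left out, as the table holds no counts, and they were not run on the restored reads either. Coordinates came from GENCODE 29, which matched 52526 identifiers. Replicates were distinct libraries, with a chi-square per degree of freedom of 2.69 to 9.52 between them.

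The 9 genes and the lists were chosen with earlier results of these data known. The text names all 9, up to 4 genes per list by p against mCherry plus those called against all 3 groups up to 6, and the 2 most similar genes, and the lists' other genes are given as counts. A result on one marker list is not reported here. The remaining steps used pandas 2.3.3, numpy 2.4.6, matplotlib 3.10.9 and scipy 1.17.1 under Python 3.11.15.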

Additional observations from a re-analysis of the deposited data

How the results depend on the processing

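The calls of SMAD7 and PMEPA1 against all 3 groups were kept with pseudocounts of 0.5 and 5, TMM scaling, library size alone and no filter beyond 1 read. They were also kept with only the 2 groups compared, the replicate block and each of the 12 fits without 1 library. Except with no filter, PMEPA1 entered these fits through its CR3 libraries alone, so its kept calls add no support. The calls of both genes depend on the restored powers. Powers chosen without group labels, an alternative added after the data had been seen, turned SMAD7 to -1.17, -0.90 and -0.69 against reverse, scramble and mCherry (called lower in the first 2) and SMAD6, called in all 3, to 1.08, 1.20 and 0.94, and for PMEPA1 turned reverse against mCherry to 0.87 and reverse against scramble to 0.39, neither called. They left 2 of the 9 genes called in CR3 against all 3 groups, where 4 were called. Ratios of 100 and 1000, and a filter of 50 reads in 3 libraries, each left 2 as well, since SMAD7 and PMEPA1 were then not tested. The settings added after the data had been seen were these 2 ratios and allowances of scale 0.5 with 2 degrees of freedom, which tested SMAD6 (lower) and dropped PMEPA1 as doubtful, and scale 0.25 with 3, which dropped both.

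Genes called numbered 213 in scramble against mCherry, but 64 with only those groups fitted; 93 in reverse against mCherry, but 142 with no filter, 45 with 50 reads and 54 with only those groups; and 66 in reverse against scramble, but 103 with no filter and 32 with 50 reads. With library size alone the median of all genes moved to 0.09, 0.10 and 0.09 in CR3 against reverse, scramble and mCherry, calls against mCherry split into 3558 higher and 1252 lower (2159 and 2226 otherwise), and the 4 called genes were all higher, BAMBI joining and ID1 leaving. Against all 3 groups 2750 genes were then higher and 922 lower, and 22 and 4 of the pathway genes.

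Leaving out 1 library, the called genes ranged from 3285 to 4354 in CR3 against mCherry, 4713 to 6388 against scramble and 4073 to 5811 against reverse. They ranged from 87 (without scramble replicate 3) to 554 (without mCherry replicate 3) in scramble against mCherry, 75 to 181 (without mCherry replicate 3) in reverse against mCherry and 54 to 71 in reverse against scramble. Of the 9 genes 2 (without CR3 replicate 3, and also without reverse replicate 1) to 5 were called in CR3 against all 3 groups, and of the pathway genes 14 to 21. Values that were not called and changed sign were SMAD7 (-0.23 to 0.45), PMEPA1 (-0.18 to 0.93), ID3 (-0.08 to 0.09) and BAMBI (-0.14 to 0.06) in scramble against mCherry, SKIL (-0.06 to 0.16), PMEPA1 (-0.72 to 0.39), ID3 (-0.16 to 0.01) and BAMBI (-0.02 to 0.13) in reverse against mCherry, and ID3 in CR3 against mCherry (-0.05 to 0.13) and scramble (-0.04 to 0.08).

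Same-numbered libraries of different groups did not deviate together (correlations -0.123 to 0.0647), so the numbers were not taken as pairs. With the replicate block SKIL against reverse had a log2 fold change of 0.36 and an adjusted p of 0.0551, 3 of the 9 genes were called against all 3 groups, and scramble against mCherry had 127 called genes. The edgeR and DESeq2 alternatives were not run. The deposited values are not counts, and the restored reads were not put through count tests. Low reads limit SMAD7, PMEPA1 and SMAD6, and TGFBI could not be measured. The causes of these shifts were not tested, beyond the changes in genes tested named above.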
